A study of Mus musculus with 11 samples.

Results

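High-numbered Zfp genes, mouse zinc finger genes known by a running number, were examined across the 11 RNA-seq libraries of a study of histone H2B deubiquitylation. Members were the protein-coding genes named Zfp600 to Zfp999 in the deposited count tables, taken by name; the family was chosen with earlier results of these data known. They numbered 168 of 34570 genes present in either table. All 168 were in the mESC table and 161 in the MEF table, which lacked Zfp616, Zfp683, Zfp735, Zfp967, Zfp978, Zfp986 and Zfp989.

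ATXN7L3 is the adaptor through which USP22 and related proteases remove ubiquitin from histone H2B, and the study asked what the loss of this activity does to transcription. Poly(A) RNA came from Atxn7l3+/+ mESCs (n = 2), Atxn7l3-/- mESCs (n = 3), Atxn7l3+/+ MEFs (n = 3) and Atxn7l3-/- MEFs (n = 3), all of the strain DBA/2 x C57BL/6 per the labels (a mixed B6D2 background in the study's methods) and without treatment. The mESCs had passed from feeders to feeder-free culture in 15% serum with LIF, PD0325901 (1 uM) and CH99021 (3 uM). MEFs were taken from embryos at E10.5 and grown in DMEM with 10% serum.

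These groups have limits as models. Each mESC line was derived from a single blastocyst and each MEF culture from a single embryo without its head and gastrointestinal tract. Another wild-type mESC dataset was set aside by the authors after a principal component analysis and was not analyzed here. Which parental copy of each zinc finger cluster a line carries is not known. In bulk RNA, fewer cells of a type and less RNA per cell cannot be told apart.

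Most zinc finger proteins of this kind carry tandem C2H2 fingers, which read DNA sequence, and many also carry an N-terminal KRAB domain. The KRAB domain recruits TRIM28, which brings SETDB1, heterochromatin protein HP1 and the NuRD complex to chromatin and so silences retroelements, above all in embryonic stem cells and early embryos. The genes lie in clusters that grew by duplication, so that neighbors share sequence and the clusters differ between mouse strains.

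A KRAB pattern was found in the longest reading frame of 92 members and not in 76. The search used a single fixed pattern, so a KRAB domain that departs from it would be missed. The number of C2H2 fingers ran from 0, in 6 members, to 33. Members lay on 20 chromosomes, with 35 on chromosome 7, 22 on chromosome 17 and 20 on chromosome 4. As many as 106 of them fell into 17 chromosome clusters of at least 3 members, and 62 lay outside. Shared sequence was common: in 48 members, 10% or more of the 50-base windows of the transcript also occurred in another gene. The transcripts were poor in GC, with a median of 44.0% against 50.7% for all genes tested in mESCs, and more so with the KRAB pattern (41.6%) than without it (50.1%).

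The target gene and the cell types were checked first. Atxn7l3 stood at 196 and 202 CPM in Atxn7l3+/+ mESCs and at 3.33, 1.60 and 0.831 CPM in Atxn7l3-/- mESCs. MEFs differed: Atxn7l3 was at 86.4, 117 and 104 CPM in Atxn7l3+/+ MEFs and at 56.4, 55.3 and 73.2 CPM in the MEF libraries labelled Atxn7l3-/-. The groups did not overlap in either cell type, but most of the wild-type level was still counted in the mutant MEFs; counts are per gene and do not show from which exons the reads came. By the edgeR quasi-likelihood test with Benjamini-Hochberg adjustment, the log2 fold change was -6.65 (SE 0.53, adjusted p = 0.0211) in mESCs and -0.74 (SE 0.21, adjusted p = 0.0715) in MEFs. The MEF value was -0.34 with the GC correction and -0.62 to -0.88 on leaving out a library, and of all alternatives DESeq2 alone called it (adjusted p = 0.0227 to 0.235). Without Atxn7l3+/+ mESC 1 (-6.66) or mESC 2 (-6.65) the mESC value no longer passed. Summed over 6 genes, pluripotency markers reached 3147 to 4117 CPM in the mESC libraries and 43.9 to 99.4 CPM in the MEF libraries, whose table lacks Pou5f1. Summed over 9 genes, fibroblast markers ran from 7070 to 42560 CPM in MEFs. In mESCs they were far lower but differed between genotypes, at 25.8 and 98.8 CPM in wild-type and 270, 389 and 273 CPM in mutant lines, without overlap; the median log2 fold change of the 8 tested was 1.96. Of these Col1a1 passed (2.54, adjusted p = 0.0469), but not without Atxn7l3+/+ mESC 1 (1.80), Atxn7l3+/+ mESC 2 (4.08), Atxn7l3-/- mESC 1 (2.62) or Atxn7l3-/- mESC 2 (2.43), nor with the GC correction (2.42). Also in mESCs, the epithelial marker Epcam rose (97.9 and 112 CPM against 365, 261 and 204 CPM; 1.45, adjusted p = 0.0317) and the neural marker Tubb3 fell (21.9 and 40.4 CPM against 9.98, 8.15 and 5.89 CPM; -1.91, adjusted p = 0.0307). Both lost their call without Atxn7l3+/+ mESC 1 (1.36 and -2.28), Atxn7l3+/+ mESC 2 (1.53 and -1.42) or Atxn7l3-/- mESC 1 (1.19 and -2.10). On the same list as Epcam, whose median was -0.04, the keratin genes Krt8 (-2.30), Krt18 (-1.92) and Krt19 (-3.01) had negative values that did not pass. The part of such cells in the members' values was not tested.

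The libraries also differed in RNA from the sex chromosomes. The Y-linked gene Ddx3y was at 80.3 and 175 CPM in Atxn7l3+/+ mESCs and at 2.95, 0.791 and 192 CPM in Atxn7l3-/- mESCs 1, 2 and 3. Kdm5d, also Y-linked, did not follow it in Atxn7l3-/- mESC 3: it was at 5.90 and 22.8 CPM in wild-type and 0.744, 0.0214 and 0.584 CPM in mutant lines (log2 fold change -4.92, adjusted p = 0.0387). It was not called without Atxn7l3+/+ mESC 1 (-5.59), Atxn7l3+/+ mESC 2 (-3.66) or Atxn7l3-/- mESC 1 (-5.48). In MEFs Ddx3y was at 198, 66.2 and 0.244 CPM in wild-type and at 222, 269 and 201 CPM in mutant cultures. Xist, expressed from an inactive X chromosome, was at 336 CPM in Atxn7l3+/+ MEF 3 and at 0.163 to 0.742 CPM in the other MEF libraries. The part of sex in the members' values was not tested.

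In wild-type cells, the members were of modest abundance. Their median level, per kb of transcript, was 6.61 CPM in mESCs and 4.77 CPM in MEFs, against 7.21 and 12.1 CPM for all genes tested. Zfp609 was the most abundant member per kb in both cell types (193 CPM in mESCs, 113 CPM in MEFs), and Zfp740 (173 and 99.9 CPM) and Zfp638, a nuclear RNA-binding zinc finger protein that silences unintegrated retroviral DNA with the HUSH complex (154 and 88.6 CPM), were also among the top 4 of both. The remaining places went to the KRAB gene Zfp961 in mESCs (185 CPM) and to Zfp703, a transcriptional cofactor first known from breast cancer, in MEFs (86.7 CPM). At the other end, 9 members had no library above 3 counts: Zfp616, Zfp648, Zfp663, Zfp708, Zfp735, Zfp831, Zfp957, Zfp965 and Zfp967. Transcripts of Zfp708 and Zfp965 share 94.9% and 96.3% of their windows with other genes, and those of Zfp967 all of them. How reads that match several genes were counted is not stated, so for such members little RNA and few assignable reads cannot be told apart.

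Summed over all 168 members, RNA from the family made up 3833 and 4296 CPM in Atxn7l3+/+ mESCs and 2290, 2986 and 2598 CPM in Atxn7l3-/- mESCs. The mutant lines were all below the wild-type lines. For the 92 members with the KRAB pattern, the sums were 1744 and 2129 CPM in wild-type and 764, 1277 and 961 CPM in mutant mESCs, a mean of 1936 against 1000. For the 76 others, they were 2089 and 2167 CPM in wild-type and 1526, 1709 and 1637 CPM in mutant mESCs. In MEFs the KRAB sums were 854, 570 and 618 CPM in wild-type and 1008, 1114 and 784 CPM in mutant libraries, which overlapped, although each mutant library was above the wild-type library of the same number. The sums of the others overlapped as well (1890, 1635 and 1766 CPM against 1845, 1961 and 1685 CPM). Wild-type MEFs thus held less counted KRAB zinc finger RNA than wild-type mESCs, with no overlap. The MEF sums leave out the 7 members absent from the MEF table, among them the KRAB members Zfp978, Zfp986 and Zfp989.

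**Figure D1:**
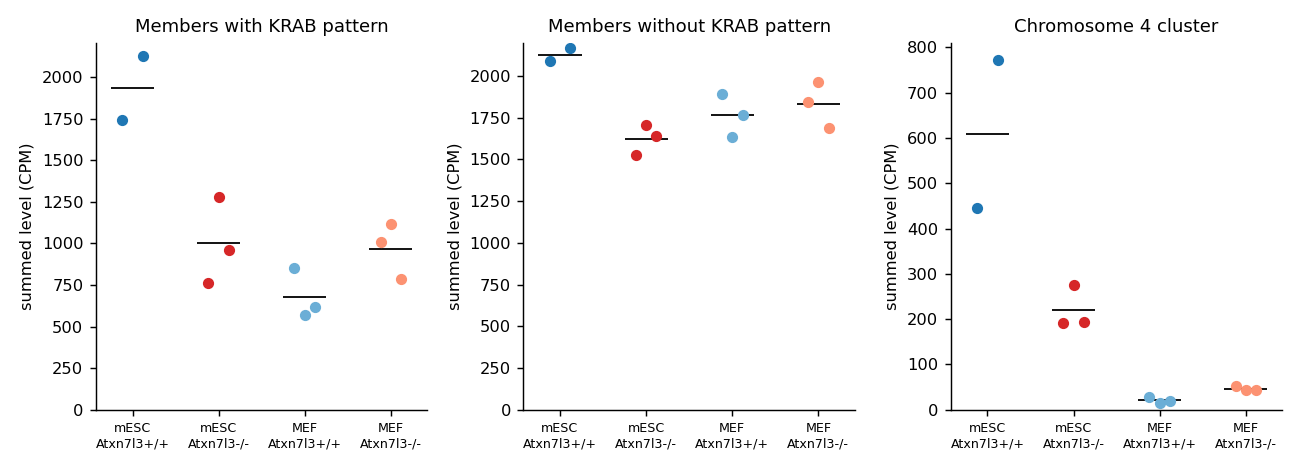
Summed CPM of the members with the KRAB pattern, the members without it and the chromosome 4 cluster in each library of the 4 groups; bars are group means. Values are scaled by TMM over the genes tested in all 11 libraries. Members absent from the MEF table are not in the MEF sums.

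In mESCs without Atxn7l3, the family was lower as a group. Of 157 members tested, 14 fell and 0 rose at an adjusted p of 0.05 or less (edgeR quasi-likelihood, Benjamini-Hochberg), while 3.88% of the 17800 genes tested fell and 3.08% rose. The 14 were 8.92% of the members tested. The median log2 fold change was -0.68 for the members and 0.04 for all genes tested, and stayed below 0 under every normalization tried (-0.54 with the GC correction). At an unadjusted p under 0.05, 5 members were higher and 56 lower (3.18% and 35.7%, against 15.0% and 14.8% of all genes), and DESeq2 called 3 higher and 45 lower (1.91% and 28.7%, against 9.77% and 9.48%). Wild-type and mutant libraries did not overlap for 89 members that were lower and 14 that were higher, against 26.6% and 23.1% of all genes tested. With the study's thresholds on fold change and expression, the counts were 0 and 14 again (in all genes tested, 2.76% higher and 1.92% lower).

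The mutant lines differed from each other. Against the wild-type mean, the median log2 difference of the 157 members was -1.01 in Atxn7l3-/- mESC 1, -0.32 in mESC 2 and -0.81 in mESC 3, with 134, 111 and 128 members lower; for all genes the same medians were -0.04, -0.01 and -0.07. The count of calls rested on single libraries. Without Atxn7l3+/+ mESC 1, Atxn7l3+/+ mESC 2 or Atxn7l3-/- mESC 1, 0 members were called lower by edgeR (32, 29 and 36 at an unadjusted p under 0.05), and without Atxn7l3-/- mESC 2, 38 were called lower and 2 higher.

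KRAB members accounted for 10 of the 14 calls. Of the 90 KRAB members tested, 76 had a negative log2 fold change and the median was -0.81; of the 67 others, 53 were negative, with a median of -0.47 and 4 calls. The same held by position, with 13 calls among the 103 clustered members tested (median -0.85) and 1 among the 54 outside clusters (median -0.44). Members whose transcript shared 10% or more of its windows had 7 calls among 44 tested, a median of -0.97 and 1 positive value, and the 113 with less shared sequence had 7 calls and a median of -0.49. By GC content, the 78 tested members up to the members' median had 12 calls and a median of -0.85. The 79 above it had 2 calls and a median of -0.45. With the GC correction, the medians were -0.59 with the KRAB pattern (8 calls) and -0.45 without it (4 calls). Classes overlap, and differences between them were not tested.

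**Figure D2:**
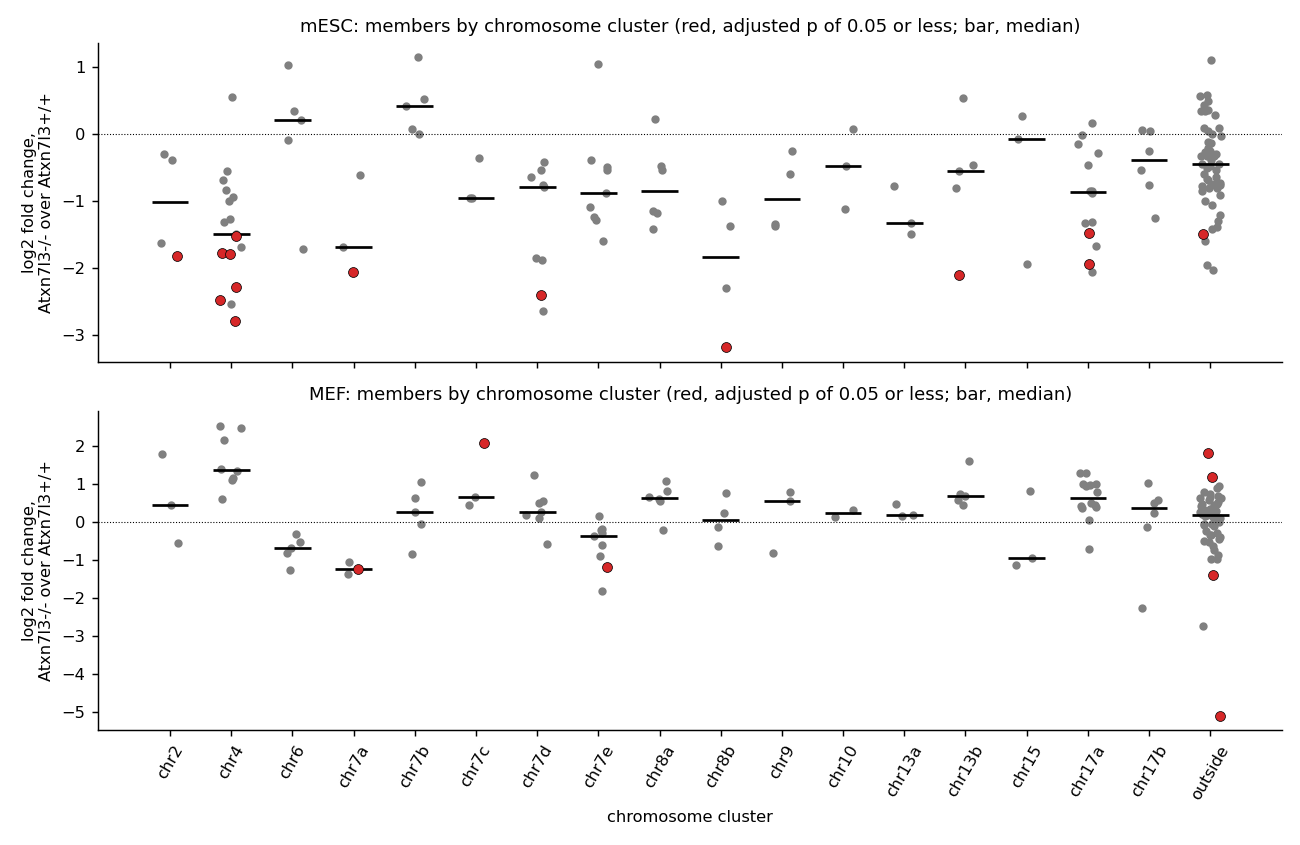
Log2 fold change of each member, Atxn7l3-/- over Atxn7l3+/+, by chromosome cluster in mESCs and MEFs; bars are medians, and red points have an adjusted p of 0.05 or less. With the GC correction the median of all members kept its sign in mESCs (-0.54) and changed it in MEFs (0.25 to -0.04).

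The cluster on distal chromosome 4 held the most calls. Its 17 members, all with the KRAB pattern, span 2.34 Mb and share a median of 67.9% of their transcript windows with other genes, so that their levels may be undercounted in every library. Summed, they reached 444 and 772 CPM in Atxn7l3+/+ mESCs and 192, 276 and 195 CPM in Atxn7l3-/- mESCs. The mutant lines lay below both wild-type lines, which were themselves far apart: Atxn7l3+/+ mESC 2 was above mESC 1 for 16 of the 17, with a median log2 difference of 0.84. Zfp985, Zfp933, Zfp600, Zfp980, Zfp990 and Zfp979 fell, 16 of 17 log2 fold changes were negative, and the median was -1.49 (-1.18 and 5 calls with the GC correction). Without Atxn7l3+/+ mESC 1, Atxn7l3+/+ mESC 2 or Atxn7l3-/- mESC 1 the cluster had 0 calls.

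Promoters of this cluster are shown because its members share more than their coding sequence. Sequences are the RefSeq windows of GRCm38.p6, from 250 bases before to 50 bases after the annotated start. Bases 101 to 250 of the Zfp985 window were found at 80% identity or more in 12 of 32817 promoters, all on chromosome 4: 9 of members of this cluster (82.7% to 94.7% outside Zfp985 itself) and those of Gm13212, Rex2 and Zfp534. The median over all promoters was 53.3%. Capitals mark ATTGGGCG on either strand, which contains the reverse complement of the CCAAT box and was chosen after the sequences had been seen; it occurs in 0.558% of all promoters, in 9 of the 14 of this cluster and in 11.6% of those of KRAB members. The windows are chr4:147553027-147553326 (plus strand, Zfp985), chr4:147642459-147642758 (minus, Zfp979), chr4:145670447-145670746 (plus, Zfp980), chr4:146156577-146156876 (plus, the first of Zfp600) and chr4:147305354-147305653 (plus, Zfp988).
Zfp985: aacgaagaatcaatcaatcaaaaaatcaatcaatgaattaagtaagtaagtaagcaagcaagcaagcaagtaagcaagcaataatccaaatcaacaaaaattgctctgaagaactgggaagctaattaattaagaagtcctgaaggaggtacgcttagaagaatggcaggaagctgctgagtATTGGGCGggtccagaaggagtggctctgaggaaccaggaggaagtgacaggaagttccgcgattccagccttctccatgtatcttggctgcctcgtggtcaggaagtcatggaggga
Zfp979: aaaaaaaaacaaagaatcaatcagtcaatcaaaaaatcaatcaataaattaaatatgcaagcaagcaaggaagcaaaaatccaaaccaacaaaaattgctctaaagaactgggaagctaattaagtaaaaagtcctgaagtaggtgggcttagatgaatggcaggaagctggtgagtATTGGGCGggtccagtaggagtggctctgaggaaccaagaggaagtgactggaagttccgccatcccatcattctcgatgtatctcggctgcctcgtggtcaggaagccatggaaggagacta
Zfp980: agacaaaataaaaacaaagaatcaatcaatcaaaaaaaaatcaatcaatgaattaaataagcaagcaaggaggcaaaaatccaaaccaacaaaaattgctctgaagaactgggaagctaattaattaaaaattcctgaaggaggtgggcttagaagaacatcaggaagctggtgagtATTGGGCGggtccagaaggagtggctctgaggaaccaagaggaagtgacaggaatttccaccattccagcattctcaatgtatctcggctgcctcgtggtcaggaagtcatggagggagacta
Zfp600: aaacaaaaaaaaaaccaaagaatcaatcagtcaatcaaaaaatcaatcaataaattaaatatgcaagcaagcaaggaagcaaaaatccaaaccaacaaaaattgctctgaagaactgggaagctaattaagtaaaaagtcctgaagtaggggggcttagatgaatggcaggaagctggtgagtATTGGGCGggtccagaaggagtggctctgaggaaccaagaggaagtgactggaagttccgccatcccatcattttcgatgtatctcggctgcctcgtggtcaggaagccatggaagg
Zfp988: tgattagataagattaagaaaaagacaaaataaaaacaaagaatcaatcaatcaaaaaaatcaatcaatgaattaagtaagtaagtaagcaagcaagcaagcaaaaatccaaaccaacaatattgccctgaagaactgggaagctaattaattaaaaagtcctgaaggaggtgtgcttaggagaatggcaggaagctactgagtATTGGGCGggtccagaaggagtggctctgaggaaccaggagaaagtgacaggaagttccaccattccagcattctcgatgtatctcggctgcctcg

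Zfp985 has the reference promoter of this group. Its RNA was at 60.3 and 99.3 CPM in Atxn7l3+/+ mESCs and at 7.98, 14.9 and 10.9 CPM in Atxn7l3-/- mESCs (log2 fold change -2.78, SE 0.31, adjusted p = 0.0211). Zfp600 was at 5.81 and 16.5 CPM in wild-type and 2.15, 2.42 and 2.07 CPM in mutant lines (log2 fold change -2.28, SE 0.48, adjusted p = 0.0377). Zfp979, the most abundant of the cluster in CPM, was at 112 and 212 CPM in wild-type and 44.0, 57.0 and 63.7 CPM in mutant lines, and Zfp980 at 10.4 and 19.0 CPM and 3.92, 4.64 and 3.77 CPM. In each of these 4 the wild-type lines differed from each other, and every mutant line was below both. Zfp600 and Zfp980 were not called in the fit of all 11 libraries, nor with the replicate block and GC correction together (-1.80 and -1.38). Zfp600 also lost its call without Atxn7l3-/- mESC 2. Zfp979 was not called with the GC correction (-1.18). Zfp988, whose promoter shows 94.0% identity, was also lower in every mutant line (35.8 and 48.5 CPM against 8.54, 23.8 and 11.5 CPM) and had a log2 fold change of -1.49, near the -1.51 of Zfp979, but did not pass (adjusted p = 0.0654). The other cluster members with a promoter at 80% identity or more, Zfp987, Zfp981, Zfp982 and Zfp984, were not called either. Their log2 fold changes ran from -1.31 (Zfp987) to -0.55 (Zfp984). Among all members called lower in mESCs, 4 of 14 promoters have ATTGGGCG. Whether this promoter goes with the fall was not tested.

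Zfp933, at the end of the same cluster, has an unlike promoter. Its window, chr4:147848369-147848668 (minus strand), aligned at 53.3%, the median of all promoters, and lacks ATTGGGCG; capitals mark ACTACAAT, letters found in the consensus of the zinc finger factor ZFP143 and in 0.737% of all promoters on either strand. Zfp882 on chromosome 8 is shown beside it as the member with the largest fall. Its window is chr8:71908356-71908655 (plus strand), and capitals mark AAGATGGC, the core of the YY1 motif, on the reverse strand; 2.74% of all promoters, 4.09% of those of members and 4.21% of those of KRAB members have it.
Zfp933: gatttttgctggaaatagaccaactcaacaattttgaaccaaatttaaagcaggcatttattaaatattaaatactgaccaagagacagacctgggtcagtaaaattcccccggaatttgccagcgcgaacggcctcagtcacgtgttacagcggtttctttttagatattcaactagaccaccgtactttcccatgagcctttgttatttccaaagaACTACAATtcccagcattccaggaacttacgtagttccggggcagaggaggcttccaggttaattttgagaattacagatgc
Zfp882: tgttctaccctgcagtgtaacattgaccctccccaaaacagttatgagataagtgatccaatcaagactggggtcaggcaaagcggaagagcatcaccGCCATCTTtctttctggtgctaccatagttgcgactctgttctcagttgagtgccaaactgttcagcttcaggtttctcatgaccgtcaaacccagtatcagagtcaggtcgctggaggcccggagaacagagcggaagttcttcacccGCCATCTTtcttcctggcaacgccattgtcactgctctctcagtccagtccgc

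Zfp882 RNA was at 8.32 and 8.94 CPM in Atxn7l3+/+ mESCs and at 0.462, 1.82 and 0.494 CPM in Atxn7l3-/- mESCs (log2 fold change -3.18, SE 0.64, adjusted p = 0.0341). Zfp933 was at 12.4 and 11.6 CPM in wild-type and 0.769, 3.53 and 2.00 CPM in mutant lines (-2.47, SE 0.57, adjusted p = 0.0454). In both genes the wild-type lines were close to each other and Atxn7l3-/- mESC 2 was the highest mutant line. Zfp961, the neighbor of Zfp882 in the cluster chr8b and the second most abundant member per kb in mESCs, was at 142 and 117 CPM against 18.7, 64.0 and 63.5 CPM and did not pass (adjusted p = 0.101).

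Elsewhere in the genome, Zfp936 of the chromosome 7 cluster chr7d had 3381 and 2005 raw counts in Atxn7l3+/+ mESCs and 127, 656 and 542 raw counts in Atxn7l3-/- mESCs (log2 fold change -2.39, SE 0.54, adjusted p = 0.0429). Zfp953 of the chromosome 13 cluster chr13b was at 16.0 and 22.6 CPM against 2.98, 7.29 and 2.88 CPM (-2.10, SE 0.46, adjusted p = 0.0403). Neither gene overlapped between genotypes, and neither was called in the fit of all 11 libraries. Zfp936 was also not called with the GC correction (-2.14). Zfp820 and Zfp945 of the chromosome 17 cluster chr17a, Zfp971 of chr2 and Zfp628 of chr7a also fell, by 1.47, 1.93, 1.82 and 2.06 on the log2 scale. Zfp971 was not called with the replicate block (-1.71), the GC correction (-1.54), both together (-1.45) or in the fit of all 11 libraries. Zfp820 was not called with both together (-1.14). Outside clusters, the fall of Zfp638, from 181 and 190 CPM to 51.5, 87.0 and 55.2 CPM, was the single call (log2 fold change -1.48, SE 0.24, adjusted p = 0.0243).

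Not every cluster was low. Median log2 fold changes ran from -1.84 in chr8b and -1.68 in chr7a to 0.21 in chr6 and 0.42 in chr7b; members with the KRAB pattern are few at both ends (1 of 4, 0 of 3, 0 of 5 and 1 of 5). Summed levels in chr6 were 66.0 and 74.4 CPM in wild-type and 82.8, 74.8 and 81.5 CPM in mutant mESCs. In chr7d, all 9 members, each with the KRAB pattern, had negative values (median -0.79), and in chr17a 13 of 14 did (median -0.86). These medians rest on 3 to 17 genes that share their libraries and, in part, their sequence.

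**Figure D3:**
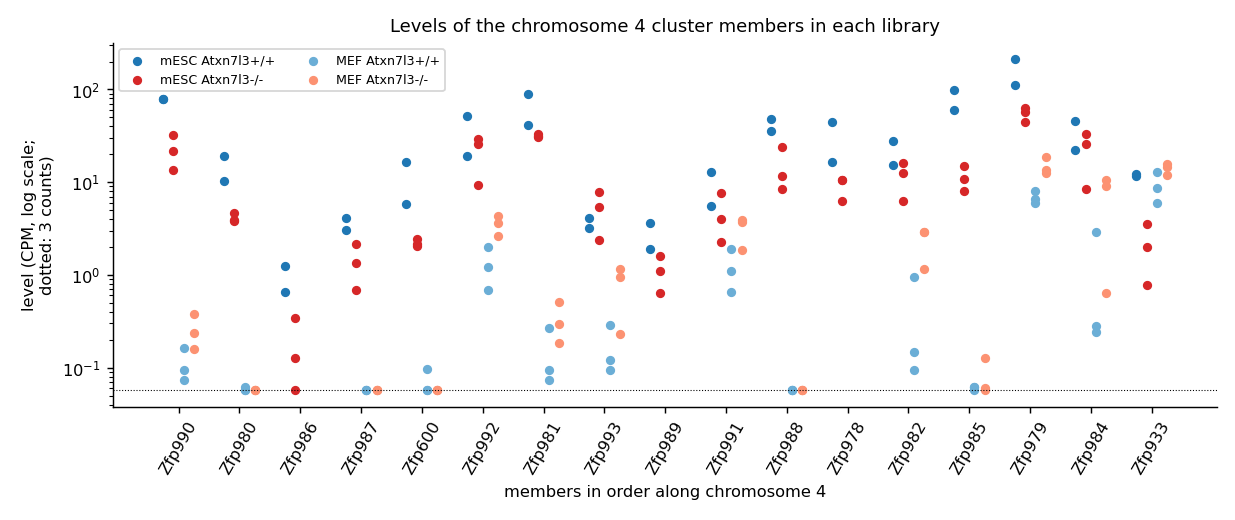
Level of each chromosome 4 cluster member in each library, in order along the chromosome, on a log scale; values under the dotted line at 3 counts are drawn on it. Zfp978, Zfp986 and Zfp989 are not in the MEF table and have no MEF points.

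Members with a known role ran from -1.48 (Zfp638) to 0.05 (Zfp750) in log2 fold change in mESCs, with Zfp711 (-0.02) and Zfp687 (-0.25) also near 0. Zfp809, the KRAB protein that silences murine leukemia virus through its primer binding site, was at 67.0 and 62.8 CPM in Atxn7l3+/+ mESCs and at 18.2, 40.9 and 14.5 CPM in Atxn7l3-/- mESCs, without overlap but short of the threshold (log2 fold change -1.37, adjusted p = 0.0743). Zfp932, a KRAB repressor of endogenous retroviruses, was at 6.87 and 7.40 CPM against 2.85, 4.36 and 4.38 CPM (adjusted p = 0.183). Zfp644, which partners the H3K9 methyltransferase G9a, was at 48.1 and 50.7 CPM against 12.5, 28.5 and 27.9 CPM (adjusted p = 0.0947). Of the 13 members on the list of known roles, 12 were tested in mESCs and 1, Zfp638, passed. The median was -0.75. Of all genes tested, 3.88% fell and 3.08% rose.

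Co-repressor genes were read from a list of 34. In mESCs 2 of the 34 fell and 0 rose, with a median of -0.31, while 3.88% of all genes tested fell and 3.08% rose. Trim28, the KRAB co-repressor itself, was at 1486 and 1903 CPM in Atxn7l3+/+ mESCs and at 778, 751 and 741 CPM in Atxn7l3-/- mESCs (log2 fold change -1.11, SE 0.20, adjusted p = 0.0287), and Chd4, the NuRD remodeler, fell by 0.83 on the log2 scale (-0.71 to -0.95 on leaving out a library, and not called in any of these 5 fits). Wild-type and mutant levels of Trim28 did not overlap. Its call was lost without Atxn7l3+/+ mESC 1 (-1.27), Atxn7l3+/+ mESC 2 (-0.94) or Atxn7l3-/- mESC 1 (-1.14), and in the fit of all 11 libraries (-1.16). Chd4 was also not called with the replicate block (-0.83), nor with the block and GC correction together (-0.94). Among zinc finger genes of known role with lower numbers, the imprint regulator Zfp57 was at 584 and 532 CPM against 377, 382 and 340 CPM (adjusted p = 0.0921) and Zfp568, a KRAB repressor of a placental Igf2 promoter, at 508 and 468 CPM against 105, 291 and 211 CPM (adjusted p = 0.0767). Zfp445 and Zfp42 did not pass either.

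Zfp genes with numbers under 600, 194 in all, gave the comparison closest in kind. Of 188 tested in mESCs, 3 rose and 6 fell (1.60% and 3.19%, against 3.08% and 3.88% of all genes tested). The median log2 fold change was -0.44, and 142 were negative. Their summed level was 6997 and 7501 CPM in Atxn7l3+/+ mESCs and 4862, 6207 and 5523 CPM in Atxn7l3-/- mESCs, again with no overlap. By summed level, zinc finger RNA was therefore lower in mutant mESCs on both sides of Zfp600. Below Zfp600, the share of lower edgeR calls did not exceed that of all genes, but other measures leaned lower there too. At an unadjusted p under 0.05 by edgeR, 47 of the 188 were lower and 14 higher, against 14.8% and 15.0% of all genes. Libraries did not overlap for 86 that were lower (45.7%) and 25 that were higher (13.3%), against 26.6% and 23.1% of all genes tested.

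**Figure D4:**
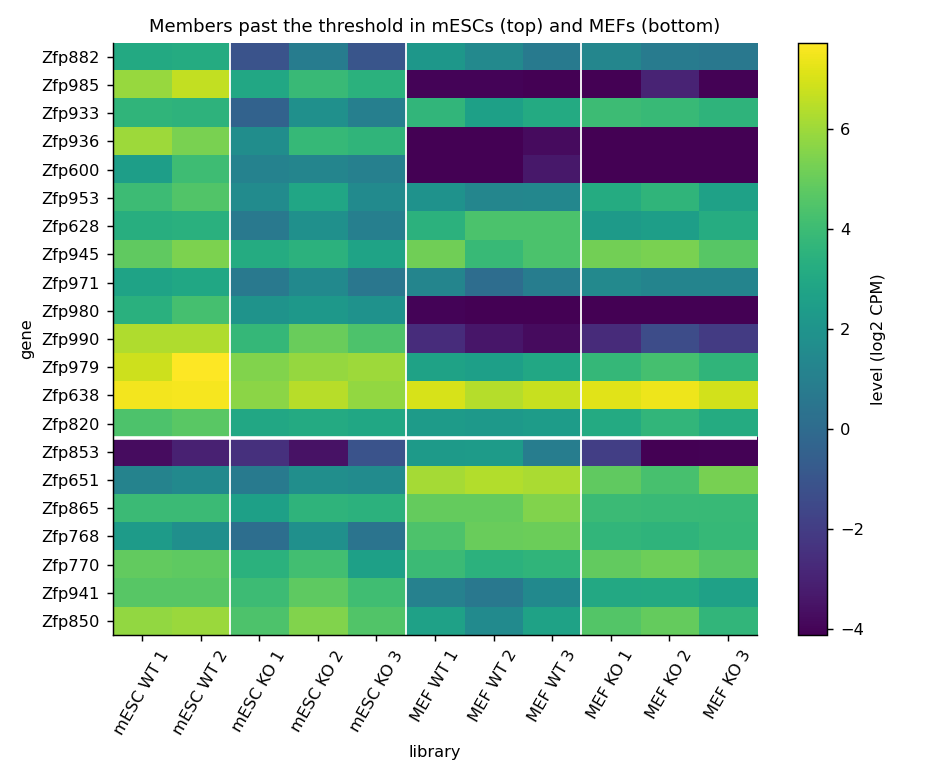
Level (log2 CPM) in each library of the 14 members that passed the threshold in mESCs (top) and the 7 that passed in MEFs (bottom). Levels under 3 counts of the deepest library are drawn at that value.

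In MEFs few members differed between genotypes. Of 142 tested, 3 rose and 4 fell (edgeR quasi-likelihood, adjusted p of 0.05 or less), against 5.01% and 4.39% of the 15958 genes tested, so that in this test both shares were below those of all genes. The median log2 fold change was 0.25, and 91 members were positive, against a median of -0.06 for all genes; with the GC correction the members' median turned to -0.04. Libraries did not overlap for 34 higher and 21 lower members (20.1% and 19.7% of all genes tested). With the study's thresholds, 3 were higher and 4 lower, against 4.34% and 3.26% of all genes. DESeq2 called 19 higher and 11 lower; of these shares, 13.4% was above and 7.75% below those of all genes (10.8% and 13.9%).

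The 3 that rose were Zfp850, Zfp941 and Zfp770. Zfp850, a KRAB gene of the cluster chr7c, was at 6.27, 2.90 and 6.40 CPM in Atxn7l3+/+ MEFs and at 23.8, 30.5 and 12.7 CPM in Atxn7l3-/- MEFs (log2 fold change 2.08, SE 0.47, adjusted p = 0.0436; with the replicate block, adjusted p = 0.0613). Zfp941 was at 2.10, 1.56 and 2.80 CPM against 8.21, 8.53 and 6.33 CPM (1.82, SE 0.39, adjusted p = 0.0404), and Zfp770 at 15.4, 11.2 and 12.3 CPM against 29.9, 34.1 and 25.1 CPM (1.17, SE 0.25, adjusted p = 0.0395). Groups were apart in all 3. Among those that fell, Zfp853 went from 5.07, 5.21 and 1.85 CPM to 0.265, 0.0255 and 0.0598 CPM, the last of these 1 and 2 raw counts (log2 fold change -5.10, SE 0.94, adjusted p = 0.0274). Zfp651, at 69.8, 82.8 and 75.2 CPM in wild-type and 28.2, 19.1 and 39.8 CPM in mutant MEFs, fell by 1.40 on the log2 scale, Zfp865 by 1.24 and Zfp768 by 1.18; with the GC correction these were -0.70, -0.27 and -0.41 and not called.

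Each of these 7 calls was lost without at least 1 library. Without Atxn7l3+/+ MEF 1, MEF 2 or MEF 3, edgeR called 0 higher (35, 16 and 12 at an unadjusted p under 0.05) and 1, 1 and 0 lower. Without Atxn7l3-/- MEF 1 or MEF 2, it called 0 higher (13 and 15 at an unadjusted p under 0.05) and 1 and 0 lower, and without Atxn7l3-/- MEF 3, 5 higher and 3 lower. With the GC correction Zfp853 alone of the 7 kept its call (-4.44); Zfp850, Zfp941 and Zfp770 did not (1.56, 1.47 and 0.63), and the single member called higher was another, Zfp623 (0.77). With the replicate number as a block, 2 were higher and 7 lower.

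By class, the KRAB members were mostly positive in MEFs. Of 78 tested, 65 were positive (83.3%), with a median log2 fold change of 0.55 that was 0.08 under the GC correction; 2 rose and 0 fell (2 lower at an unadjusted p under 0.05). Of the 64 without the pattern, 26 were positive, the median was -0.17, 1 rose and 4 fell. Of the 14 members of the chromosome 4 cluster in the MEF table, 8 passed the expression filter, some of them with few counts in wild-type cultures, and 0 were called by edgeR. Summed over all 14, the cluster reached 28.0, 14.1 and 19.8 CPM in wild-type and 52.9, 42.6 and 43.4 CPM in mutant MEFs, without overlap.

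The MEF cultures also differed in their cell composition markers. Epithelial and mesothelial markers, 7 genes with Upk3b the most abundant in mutant cultures, summed to a mean of 24.7 CPM in Atxn7l3+/+ MEFs and to 3541, 2281 and 2500 CPM in Atxn7l3-/- MEFs; 6 were tested and 3 of them (Upk3b, Msln and Krt18) rose, while Krt8 (2.80), Krt19 (-0.37) and Cdh1 (-1.58) did not pass. The sums are mostly Upk3b and Msln. Krt18 was no longer called without Atxn7l3+/+ MEF 1 (5.50), Atxn7l3+/+ MEF 3 (5.16) or Atxn7l3-/- MEF 1 (5.04). The pluripotency marker Tfcp2l1 rose from 1.07 to 1.56 CPM in wild-type to 27.2 CPM or more in mutant cultures (5.36, adjusted p = 0.00591, called without each library in turn), and Sox2 was at 4.43 to 47.7 CPM against 0 to 6.75 CPM and did not pass. The median of the 4 pluripotency markers tested was -0.71, with Klf4 at -1.02 and Nanog at -0.39. Macrophage markers, 7 genes led by Lyz2, summed to 902, 1112 and 539 CPM against 6178, 2271 and 850 CPM, with 0 called by edgeR. Lyz2 (2.36) made up most of each sum, and Csf1r (-0.15), Tyrobp (-0.04), Fcer1g (0.12) and Adgre1 (0.28) were near 0. Cd68 (0.92) and Ptprc (0.74) had positive values that did not pass. Of 4 neural markers tested, Map2 and Dcx fell, Dcx no longer without Atxn7l3+/+ MEF 3 (-5.95), Atxn7l3-/- MEF 1 (-5.88) or Atxn7l3-/- MEF 2 (-5.87). Fibroblast markers overlapped (7070, 42560 and 14846 CPM against 18578, 20452 and 24692 CPM). The part of cell composition in the members' values was not tested.

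From the co-repressor list, Morc3 alone passed in MEFs, at 62.1, 39.0 and 60.4 CPM in wild-type and 115, 141 and 95.0 CPM in mutant cultures (adjusted p = 0.0476), without overlap; it passed on leaving out Atxn7l3-/- MEF 3 but no other library, and passed neither with the GC correction (log2 fold change 0.61) nor with the replicate block (1.11, adjusted p = 0.0663). Trim28 was at 252, 463 and 339 CPM against 252, 239 and 340 CPM, which overlapped. Zfp57 rose, from 31.8, 24.4 and 35.2 CPM to 94.0, 106 and 79.4 CPM (1.59, SE 0.22, adjusted p = 0.0150); the call was lost without Atxn7l3+/+ MEF 3 (adjusted p = 0.0504), Atxn7l3-/- MEF 1 (0.0588) or Atxn7l3-/- MEF 2 (0.0535). Lower-numbered Zfp genes gave 5 higher and 2 lower of 181 tested, with a median of 0.26.

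The wild-type mESC lines and MEF cultures were compared next. In a fit of all 11 libraries, 22 of 154 members were higher in Atxn7l3+/+ MEFs than in Atxn7l3+/+ mESCs and 60 were lower, against 26.8% and 27.1% of the 19326 genes tested; without Atxn7l3+/+ mESC 1 or mESC 2, 14 and 12 were higher. The median log2 fold change was -0.62 for the members, also with values held at the floor of 3 counts per library, and 0.00 for all genes; cell type and any difference in handling between the sets of libraries cannot be told apart. KRAB members had 43 of the 60 lower calls and 6 of the 22 higher ones, with a median of -0.89. The others had 17 and 16, with a median of -0.33. The 154 include 12 members that did not pass the filter in the MEF fit. For these, a lower value in MEFs follows in part from how they entered the test. Lower-numbered Zfp genes gave 25 higher and 57 lower of 190, with a median of -0.37.

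The chromosome 4 cluster had few counts in MEFs. All 14 of its members present in both tables were tested in the fit of all 11 libraries, 6 of them too low in MEFs to pass the filter there. These 6 entered through their mESC counts, so a lower value in MEFs follows from how they entered. Of the 14, 13 were lower in MEFs, and the median log2 fold change was -5.66 with values held at the floor (-7.00 as fitted). Zfp988 had 4244 counts in the wild-type mESC libraries together and 1 count in the wild-type MEF libraries, a level 5128-fold higher in mESCs (95% counting interval 920 to 202600). For Zfp936, in chr7d, the counts were 5386 and 3 (2169-fold, 742 to 10523), and for Zfp985 8000 and 6 (1611-fold, 740 to 4392). Zfp987 had 361 counts and 0, at least 38.4-fold higher in mESCs against 3 counts per library. For each of these genes, every wild-type MEF library was at or under that floor. The folds are therefore not exact, and their intervals cover counting error only. Zfp933 was at 12.8, 6.02 and 8.69 CPM in wild-type MEFs, close to its mESC level, and its log2 fold change between the cell types was -0.38 (adjusted p = 0.572).

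The 4 named members that were higher in MEFs lack the KRAB pattern and have 1 to 7 fingers. Zfp608, a paralog of Zfp609, was at 0.495 and 0.493 CPM in mESCs and at 46.6, 31.2 and 22.4 CPM in MEFs (log2 fold change 6.07, SE 0.54, adjusted p = 1.56e-05). Zfp651 was at 2.29 and 2.84 CPM against 69.8, 82.8 and 75.2 CPM (4.89, SE 0.45), and Zfp618 at 0.800 and 1.77 CPM against 34.5, 26.2 and 32.2 CPM (4.59, SE 0.83). Zfp853 had 10 counts in the wild-type mESC libraries and 492 in the wild-type MEF libraries. For all 4, every MEF library was above every mESC library of wild type, and the calls held without each of the 11 libraries in turn.

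**Figure D5:**
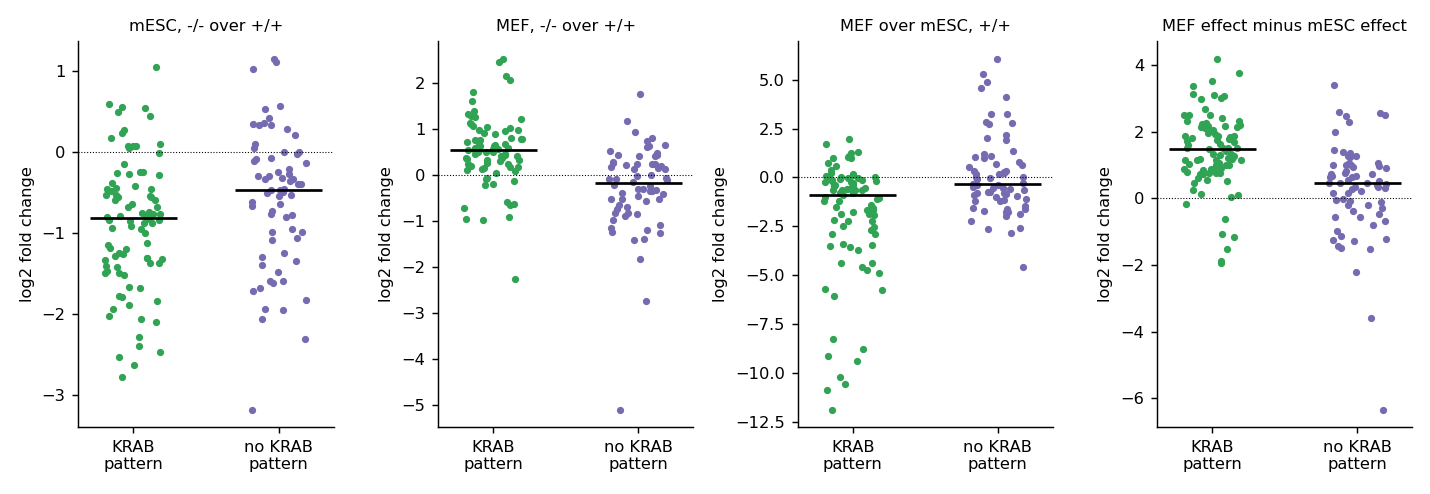
Log2 fold change of members with and without the KRAB pattern in the 4 comparisons; bars are medians. In MEFs the median of KRAB members was 0.55 (0.08 with the GC correction), and that of all members changed sign with it (0.25 to -0.04).

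The genotype effects in the cell types share no library, and their difference was tested in the fit of all 11 libraries. The MEF effect minus the mESC effect was above 0 for 18 of 154 members and below 0 for 2 at an adjusted p of 0.05 or less, against 6.14% and 5.27% of all genes tested. Its median was 1.00 for the members (0.62 with the GC correction) and -0.09 for all genes, and 123 of 154 were positive. The KRAB pattern was present in 87 of the 154 tested and in 15 of the 18 called above 0 (9 of 13 with the GC correction). Some of these members have hardly any counts in MEFs, so that the MEF part of their values rests on very few reads; in the 141 members that passed the filter in both cell types, the median was 0.99 (0.60 with the GC correction), 114 were positive, and 16 were called above 0, 13 of them with the KRAB pattern, and 1 below. With the GC correction, 11 of the 141 were called above 0, 7 of them with the KRAB pattern, and 0 below. Over all 154 members the counts were 12 and 1 with the replicate block within cell type, and DESeq2 called 47 and 7 (30.5% and 4.55%, against 10.6% and 11.3% of all genes). Lower-numbered Zfp genes gave 16 above 0 and 3 below of 190 by edgeR (8.42% and 1.58%). Their median was 0.71, and 141 were positive.

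Zfp953 led the list, with a difference of 3.77 (SE 0.67, adjusted p = 0.0103). Its levels in MEFs were 3.79, 2.46 and 2.61 CPM in wild-type and 9.08, 12.2 and 6.27 CPM in mutant cultures, the opposite of the mESC order. Zfp985 followed with 3.52 (SE 0.73, adjusted p = 0.0178), but its MEF libraries held 6 counts in wild-type and 9 in mutant cultures together. Zfp933 had 3.12 (SE 0.74, adjusted p = 0.0263), at 12.8, 6.02 and 8.69 CPM in wild-type and 15.8, 14.5 and 11.8 CPM in mutant MEFs, which overlapped. Zfp979 had 2.69 (SE 0.41, adjusted p = 0.00584) and was the single member called without each of the 11 libraries in turn. Below 0 were Zfp853 with -6.35, from 10 and 32 counts in wild-type and mutant mESCs, and Zfp688 with -1.89 (with the replicate block, adjusted p = 0.0697). Zfp688 was at 9.90 and 10.4 CPM against 18.9, 18.4 and 23.8 CPM in mESCs and at 9.32, 12.2 and 10.6 CPM against 6.20, 4.57 and 6.63 CPM in MEFs.

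Single libraries moved these results too. Zfp953 was not called without Atxn7l3+/+ mESC 2, nor Zfp985, Zfp933, Zfp688 and Zfp853 without either wild-type mESC line. Zfp985 also lost its call without Atxn7l3-/- MEF 2, Zfp688 without Atxn7l3-/- mESC 3, and Zfp933 without Atxn7l3-/- mESC 3, Atxn7l3+/+ MEF 3, Atxn7l3-/- MEF 1 or Atxn7l3-/- MEF 2. The calls above 0 were 3 without Atxn7l3+/+ mESC 1, 1 without Atxn7l3+/+ mESC 2, 11 without Atxn7l3-/- mESC 1, 36 without Atxn7l3-/- mESC 2 and 9 without Atxn7l3-/- mESC 3. They were 10 without Atxn7l3+/+ MEF 3, 10 without Atxn7l3-/- MEF 1 and 8 without Atxn7l3-/- MEF 2. Calls below 0 were 0 without either wild-type mESC line (4 and 7 at an unadjusted p under 0.05), 4 without Atxn7l3-/- mESC 2, 1 without Atxn7l3-/- mESC 3 and 5 without Atxn7l3-/- MEF 3.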

How the data were processed

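RNA from 5 mESC and 6 MEF libraries was sequenced by the authors as poly(A) RNA; per the labels, reads were trimmed (cutadapt 1.10), aligned to mm10 (STAR 2.5.3a) and counted per gene (HTSeq 0.6.1p1). The deposited raw values are counts, 34515342 to 49602605 per library. The signal columns deposited by the authors are counts divided by a DESeq2 1.16.1 size factor and by transcript length in kb, and they served only for the study's expression threshold. The deposited median transcript length (other, in bases) gave levels per kb. An unnamed column of the tables (1 in all) was not used. The annotation and strand setting of the counting were not stated; 91.1% of members have the same coordinates in GENCODE M21, from which GC content, shared 50-base windows and the longest reading frame were computed, the last in place of a protein table.

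Members and gene lists were chosen with earlier results of these data known. Genes passing filterByExpr were tested with edgeR 4.0.16 (quasi-likelihood, TMM, Benjamini-Hochberg over all genes tested, R 4.3.3) in a fit per cell type and, across cell types, a fit of all 11 libraries. Tested were 157 members in mESCs, 142 in MEFs and 154 in the fit of all libraries. Called means an adjusted p of 0.05 or less; the study's thresholds add a log2 fold change of 1 or more in size and a median above 10 normalized reads per kb. CPM are counts over table total times TMM factor of the fit of all libraries; the floor of 3 counts per library was 0.0571 to 0.0936 CPM. Errors are SE of the log2 fold change. DESeq2 1.42.0, RLE, other filters, GC correction (lowess, span 0.3), replicate block and leaving out each library were the alternatives.

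Named genes are, in each genotype comparison, up to 6 members per direction with the largest changes among non-overlapping calls, 4 between cell types, 3 for the difference, the 4 most abundant per kb, the top 2 of each cluster, and lists of known roles; others were named after their values were seen. Clusters are 3 or more members with gaps of at most 1 Mb. Promoter alignment used edlib 1.3.9.post1; 142 members had a RefSeq promoter, 171 windows in all. Same-numbered MEF libraries deviated together (correlations over genes of 0.473, 0.161 and 0.240), so blocked counts are given beside MEF results where they differ by over 1.5 times. The fits and sequence searches were tested on simulated data with known changes.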

Additional observations from a re-analysis of the deposited data

Results flagged for a closer look

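The genotype effect differed between MEFs and mESCs for 20 members by the edgeR test of the difference itself, in the fit of all 11 libraries. Given as the MEF effect minus the mESC effect on the log2 scale, the values above 0 were 3.77 for Zfp953, 3.52 for Zfp985, 3.12 for Zfp933, 3.09 for Zfp850, 3.01 for Zfp990, 2.69 for Zfp979, and 2.51 for each of Zfp770, Zfp820, Zfp758 and Zfp945. Next came Zfp971 at 2.31, Zfp959 at 2.26, Zfp809 at 2.20, Zfp961 at 2.19, Zfp941 at 2.13, Zfp638 at 1.99, Zfp994 at 1.89 and Zfp946 at 1.81. Below 0 were Zfp688 at -1.89 and Zfp853 at -6.35. With the replicate number as a block, 9 of the 20 no longer passed: Zfp971 (adjusted p = 0.0888), Zfp959 (0.0811), Zfp809 (0.0606), Zfp961 (0.0577), Zfp941 (0.0640), Zfp758 (0.0648), Zfp994 (0.0810), Zfp946 (0.0966) and Zfp688 (0.0697). In MEFs, Zfp985 and Zfp990 had 6 and 14 counts in the wild-type libraries together and 9 and 29 in the mutant libraries. Of the 18 above 0, 5 were also called in every alternative fit that kept all libraries and gave them a value, and 1 (Zfp979) without each library in turn. The part of the cell composition of the MEF cultures in these values was not tested.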

How the results depend on the processing

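Counts of members called moved more than medians. In mESCs, the count of lower members (14) was 35 with no filter, 45 with DESeq2, 23 with the replicate block, 22 with the block and GC correction together, 9 in a fit of all 11 libraries and 0 to 38 on leaving out a library; the count of higher members (0) was 1 with no filter, 3 with DESeq2 and 0 to 2 without a library. In MEFs, the count of higher members (3) was 19 with DESeq2, 1 with the GC correction, 0 with that and the replicate block (13 at an unadjusted p under 0.05), 13 in the fit of all libraries and 0 to 5 without a library. The count of lower members (4) was 11 with DESeq2, 7 with the replicate block, 1 with the GC correction with or without the block, 7 in the fit of all libraries and 0 to 3 without a library. For the difference of effects, the count above 0 (18) was 47 with DESeq2, 7 with the GC correction and block, and 1 to 36 without a library; the count below 0 (2) was 7 with DESeq2, 1 with the block, 1 with the GC correction, 0 with both (6 at an unadjusted p under 0.05) and 0 to 5 without a library. Between wild-type cell types, the counts were 12 to 23 higher and 47 to 61 lower without a library, and no other alternative moved them by over 1.5 times. The MEF median of 0.25 turned to -0.04 with the GC correction and to -0.01 with the GC correction and replicate block; the medians of the other comparisons kept their sign in every alternative. In mESCs the replicates share a number only (correlations of 0.00777 and -0.172). The block changed no other count by over 1.5 times. With all genes tested, the unfiltered fits shifted the median by -0.10 in mESCs and -0.12 in MEFs and between cell types. Where 1 wild-type mESC line is left, it is assumed to vary like the other groups. The causes were not tested. The number of clusters was 16 with gaps of at most 0.5 Mb and 17 with gaps of at most 2 Mb. In mESCs the spread among wild-type lines rests on a single pair of lines.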
